A study of Homo sapiens with 10 samples.

Results

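The 34 protein-coding serpin genes of 2 established human lung cancer cell lines, H460 and A549, are described here across 10 RNA sequencing libraries. Members were all genes of the table that are annotated as protein-coding and whose symbol is SERPIN followed by a clade letter from A to I and a number. They were 34 of 46427 genes in the table, and 34 of its 19672 protein-coding genes. By clade, 10 belonged to clade A, 13 to clade B, 3 to clade E, 2 each to clades F and I, and 1 each to clades C, D, G and H.

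The 10 libraries were of poly(A) RNA. Parental H460 cells, grown in 2 dimensions (2D) in serum, gave 3 libraries. CR, PR and DR cells are H460 cells that survived cisplatin (4 µM), paclitaxel (5 nM) or doxorubicin (0.5 µM) for 3 days and had 3 more days in fresh medium, with 1 CR, 2 PR and 1 DR library. TS cells are tumor spheres of either line, titled CTC in the labels, held in RPMI with B27, bFGF and EGF on plates coated with poly-HEMA against attachment and passaged at least 3 times, with 1 library of each line. A549 cells in 2D gave 1 library. The TS libraries thus differ from 2D libraries in medium as well as in attachment, and the drug survivors were measured after a recovery period. Nothing in the labels says whether libraries of 1 group came from separate cultures, so p-values measure the spread between these libraries, which may be technical. In bulk RNA, fewer cells of a type and less RNA per cell cannot be told apart.

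Serpins are a family of proteins that share 1 fold with an exposed reactive loop. In the inhibitory members, a target protease cuts this loop, the loop inserts into the body of the serpin, and the protease stays trapped in a covalent complex that cells clear through endocytic receptors such as LRP1. Clade A and C to G members are mostly secreted and control elastase, clotting, complement and plasmin, clade B members mostly act inside cells, and some members such as maspin and the collagen chaperone SERPINH1 inhibit no protease.

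The libraries held between 59499787 and 89541774 counts, with a median of 71656787. Of the epithelial markers, the keratins KRT8 and KRT18 were abundant in every library (KRT8 between 282.7 and 3866 FPKM), while EPCAM reached at most 0.114 FPKM in H460 and CDH1 at most 0.0266 FPKM there. No alveolar marker, such as the surfactant genes or NKX2-1, reached 1 FPKM in any library. The number of genes with at least 1 count was 21036 to 21603 in parental H460, 22720 in CR, 25781 and 26133 in PR, 26745 in DR and 21154 in H460 TS. In A549 it was 21880 in 2D and 22762 in TS.

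Levels are given as FPKM, the fragments per kilobase of transcript scaled to library size by the authors, which can be compared between genes. Of the 34 serpins, 18 reached 1 FPKM in at least 1 library, 12 stayed below 1 FPKM with a count in at least 1 library, and SERPINA7, SERPINA11, SERPINB13 and SERPINI2 had a count of 0 in all 10 libraries. Parental H460 cells held 11 serpins at 1 FPKM or more in each library, the drug-resistant libraries 12 to 14, H460 TS 12, A549 2D 9 and A549 TS 14. The summed serpin level was between 606.4 and 770.7 FPKM in parental H460. It was 3845 in CR, 1705 and 2358 in PR, and 2396 in DR. H460 spheres held 606.3 FPKM, close to the lowest parental sum, and the A549 sums were 246.3 FPKM in 2D and 627.0 in TS.

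**Figure D1:**
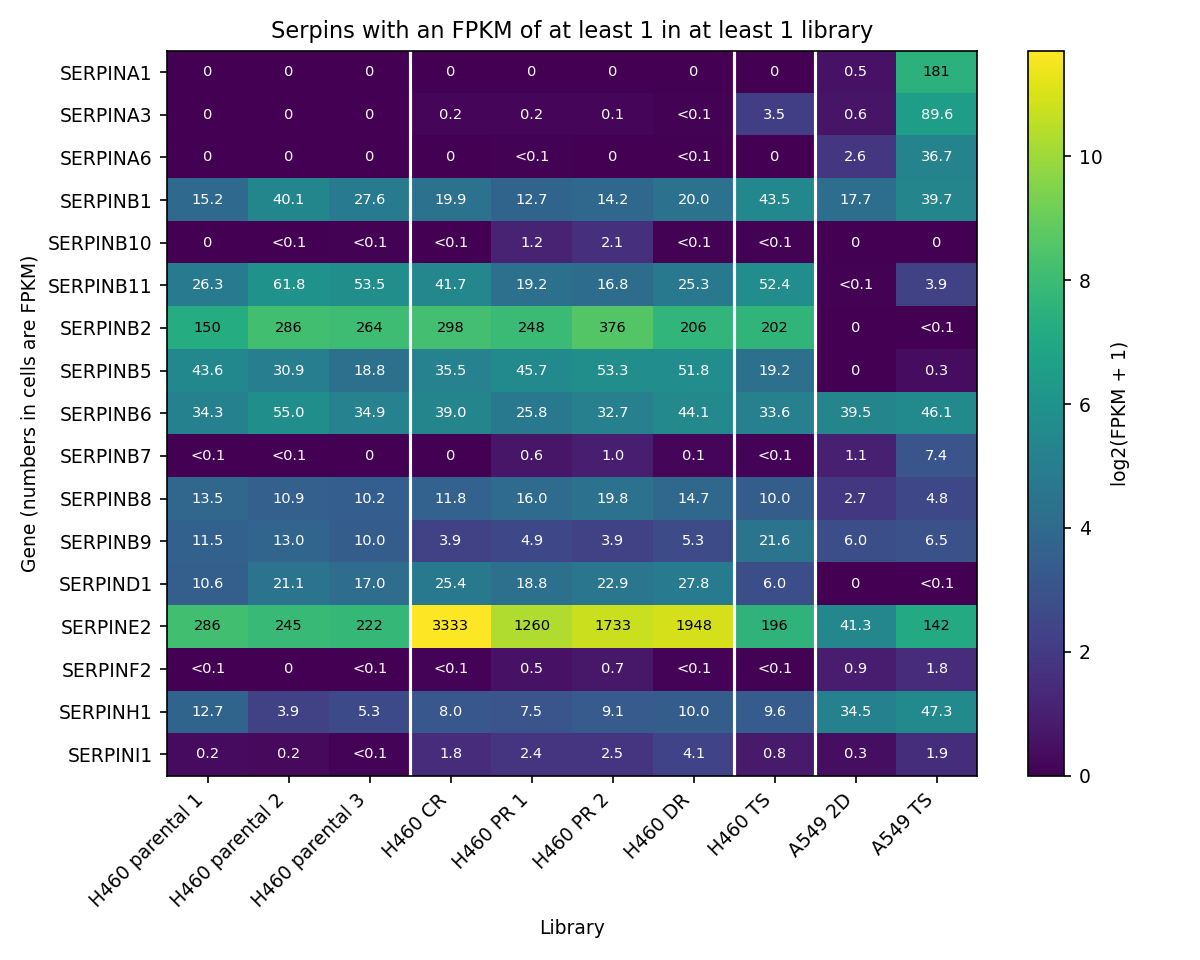
Levels of serpins that reached 1 FPKM in at least 1 library, by library (columns) and gene (rows). The colour is log2(FPKM + 1) and the numbers are FPKM; SERPINE2 is the brightest row in the CR, PR and DR columns, with 1260 to 3333 FPKM, and SERPINB2 is above 150 FPKM in all 8 H460 columns and near 0 in A549.

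**Figure D2:**
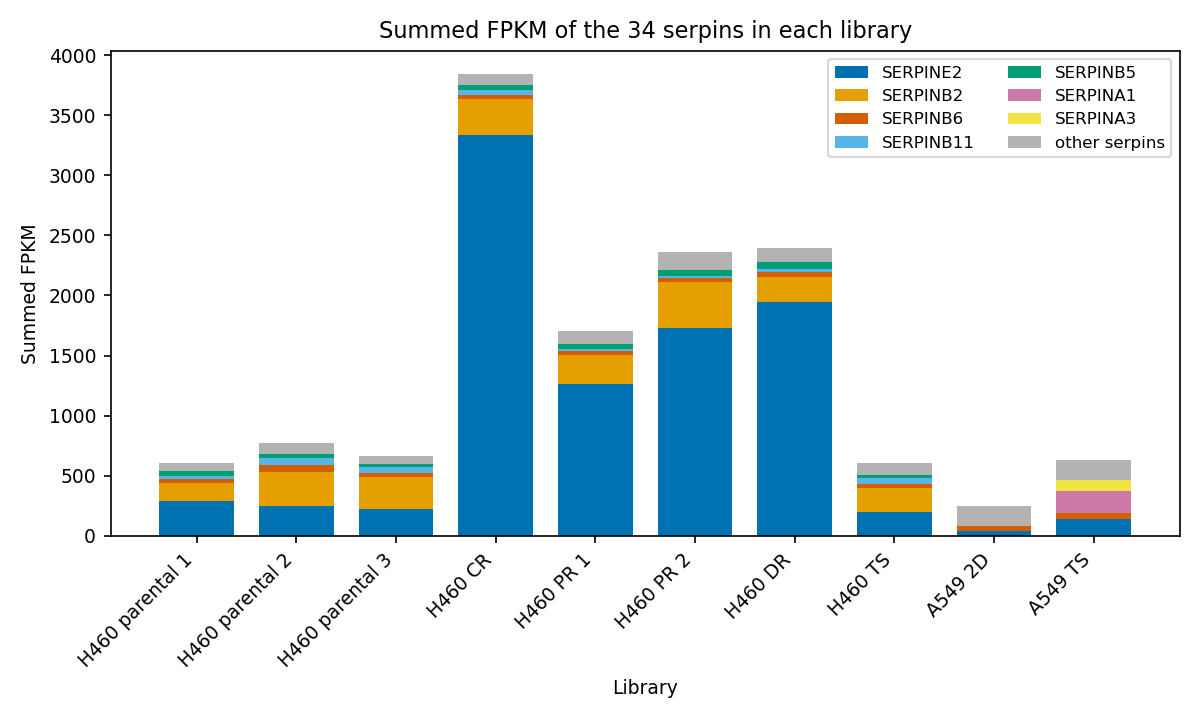
Summed FPKM of the 34 serpins in each library, stacked by gene. In CR the bar reaches 3845 FPKM, of which SERPINE2 makes 86.7%, while the 3 parental bars lie between 606.4 and 770.7 FPKM.

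SERPINE2 made 31.8 to 47.2% of the serpin sum in parental H460 and 73.5 to 86.7% in the 4 drug-resistant libraries. Without it, the sum was 320.3 to 525.3 FPKM in parental libraries and 444.9 to 625.1 FPKM in the drug-resistant ones, and these ranges overlap.

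SERPINB2, the intracellular and secreted inhibitor of urokinase also called plasminogen activator inhibitor type 2, was the other abundant serpin of H460. Its level was 150.1, 285.5 and 263.9 FPKM in parental libraries 1 to 3, 298.4 in CR, 248.0 and 376.2 in PR, 205.8 in DR and 202.5 in TS. In A549 it had 0 counts in 2D and 2 counts in TS. The 250 bases before its start are shown because SERPINB2 is the most abundant serpin that separates the lines. The sequence is of RefSeq on GRCh38.p14, 5′ to 3′ on the strand of the gene, and the capitals mark TATAAA, the core of a TATA box, and TGANTCA, an AP-1 site, each searched on both strands.
SERPINB2 (chr18:63887455-63887704, plus strand): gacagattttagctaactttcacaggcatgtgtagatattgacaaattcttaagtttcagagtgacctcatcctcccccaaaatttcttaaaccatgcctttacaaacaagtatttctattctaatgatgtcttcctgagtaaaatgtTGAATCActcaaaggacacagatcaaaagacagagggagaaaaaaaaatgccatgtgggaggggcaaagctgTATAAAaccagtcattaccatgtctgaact
Of 35116 windows of this length before RefSeq starts, 10.7% held TATAAA and 6.57% held TGANTCA. Of the 41 windows of 27 serpins, 8 held the first and 9 the second. Neither of the SERPINE2 windows held one of the motifs searched. A match is a description of the letters only, and binding was not measured.

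For drug resistance, the 4 CR, PR and DR libraries were compared with the 3 parental ones with the quasi-likelihood test of edgeR on counts, adjusted by Benjamini-Hochberg over all genes tested. The drugs stood as 1 group in this fit, with PR in 2 of its libraries, so the spread includes differences between drugs. Of the 34 serpins, 17 passed the filter on low counts, 6 were higher, among them SERPINE2, SERPINI1, SERPINF2, SERPINA3 and SERPINB7, and 1 was lower (SERPINB9). Over all 18398 genes tested, 18.5% were called higher and 15.3% lower, so that 54.6% of the calls were higher, and 67.5% with upper-quartile scaling. SERPINA3, SERPINB7 and SERPINF2 had at most 6 counts in any parental library. They passed the filter on low counts through the drug-resistant libraries, so the counts of called serpins are a description.

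SERPINE2, also called protease nexin-1, is a secreted inhibitor of thrombin, urokinase and plasmin (chr2:223975045-224039286, GRCh38). It stood at 286.2, 245.4 and 222.4 FPKM in the parental libraries, 3333 in CR, 1260 and 1733 in PR and 1948 in DR. The lowest drug-resistant library was thus far above the highest parental one. Among protein-coding genes, SERPINE2 ranked between 196 and 253 in parental cells, 13 in CR, 34 and 27 in PR and 22 in DR. The fold change was 7.62 (log2 2.93 ± 0.37 SE, adjusted p = 0.0004654).

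SERPINF2, the liver-made inhibitor of plasmin called alpha-2-antiplasmin, was scarce. Its counts were 3, 0 and 6 in parental libraries, 19 in CR, 93 and 111 in PR and 21 in DR, or at most 0.701 FPKM. The test gave log2 4.22 ± 1.03 SE (adjusted p = 0.01097). The log2 value was 3.63 without PR replicate 2 and 5.13 without parental replicate 3.

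SERPINI1, or neuroserpin, inhibits tissue plasminogen activator in the nervous system (chr3:167735721-167825569). It stood at 0.249, 0.230 and 0.0787 FPKM in parental libraries, 1.84 in CR, 2.43 and 2.55 in PR and 4.09 in DR. The groups did not overlap, and the fold change was 12.3 (log2 3.62 ± 0.44 SE, adjusted p = 0.0003982).

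SERPINB9, which protects cells from granzyme B of cytotoxic lymphocytes, was the serpin that fell (chr6:2887270-2903309). It stood at 11.5, 13.01 and 10.03 FPKM in parental libraries, 3.86 in CR, 4.87 and 3.94 in PR and 5.32 in DR. All 4 drug-resistant libraries were below all 3 parental ones, and the parental mean was 2.16 times the DR value, the highest of the 4. The log2 fold change was -1.45 ± 0.18 SE (adjusted p = 0.0004427), a level 2.73-fold lower.

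**Figure D3:**
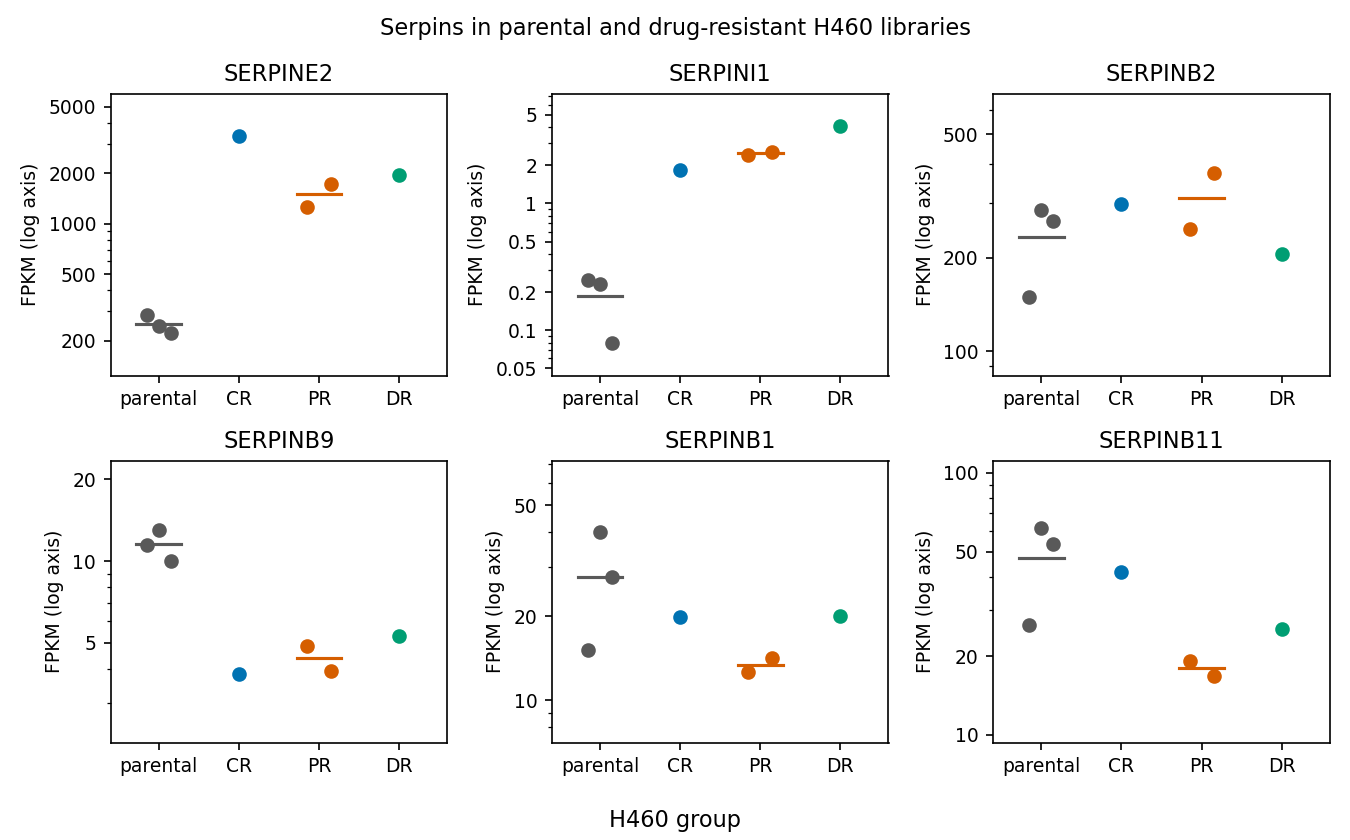
FPKM of 6 serpins in each parental, CR, PR and DR library of H460, on log axes. Points are libraries and lines are means where a group has more than 1 library; SERPINE2 and SERPINI1 lie higher in all 4 drug-resistant libraries, SERPINB9 lies lower in all 4, for SERPINB1 both PR points lie below every parental point, and for SERPINB11 the PR and DR points do.

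SERPINA3 and SERPINB7 were called at very low levels. SERPINA3, the acute-phase inhibitor alpha-1-antichymotrypsin, had 0 counts in the 3 parental libraries, 24 in CR, 22 and 11 in PR and 6 in DR. Taken against a floor of 3 counts over the parental group, this was at least 14.8-fold higher (adjusted p = 0.005254). SERPINB7, an intracellular serpin also called megsin, had 4, 4 and 0 counts in parental libraries, 0 in CR, 110 and 142 in PR and 31 in DR. Its call (log2 4.58 ± 1.46 SE, adjusted p = 0.03361) was lost on leaving out parental replicate 1, 2 or 3 (adjusted p = 0.0939, 0.0962 and 0.103) and with the form of the library name, with or without a hyphen, as a covariate (0.059). More genes had a count in the PR and DR libraries than in parental ones, as given above. Marker sums differed as well. The 5 alveolar markers, none at 1 FPKM, summed to 0.240 to 0.529 FPKM in drug-resistant and 0.0556 to 0.0917 in parental libraries. The 5 hepatocyte markers summed to 0.0673 to 0.347 and 0 to 0.0485 FPKM, and the 3 endothelial ones to 0.0156 to 0.139 and 0.00447 to 0.0110 FPKM. The 5 fibroblast markers summed to 6.05 to 19.6 and 1.29 to 6.00 FPKM, and the 5 leukocyte markers to 30.9 to 57.9 and 15.1 to 16.9 FPKM, nearly all of it CD68. PTPRC, which defines leukocytes, reached at most 0.157 FPKM. Their part in the serpin results was not tested.

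Of the other serpins at 1 FPKM or more in parental cells, these did not pass the test. For SERPINB2 the fold change was 1.11, with a 95% interval of 0.734 to 1.68. SERPINB5, or maspin, gave 1.39 (0.933 to 2.06), and SERPINB8, an inhibitor of furin, gave 1.23 (0.922 to 1.65). SERPINB6, an inhibitor of cathepsin G, gave 0.862 (0.602 to 1.23). SERPIND1, the thrombin inhibitor heparin cofactor II, gave 1.37 (0.927 to 2.02), and the collagen chaperone SERPINH1 gave 1.09 (0.637 to 1.88). SERPINB1 and SERPINB11 gave adjusted p-values of 0.06713 and 0.07656, with DESeq2 values of 0.03736 and 0.03525, and SERPINB1 was also called with the form of the library name as a covariate (0.02278). SERPINC1 (0.06292) and SERPINB3 (0.2035) also did not pass.

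With PR as the only drug with replicates, the 2 PR libraries were compared with the same 3 parental libraries, so the comparison shares its controls and its PR libraries with the one above. Of 19 serpins tested, 9 were higher and 3 lower, against 17.5% and 10.6% of 19430 genes. SERPINA3, SERPINB4, SERPINB7, SERPINB10, SERPINC1 and SERPINF2 had at most 7 counts in any parental library. They passed the filter on low counts through the PR libraries, so the counts of called serpins are again a description. Of all calls 62.2% were higher, and 75.9% with upper-quartile scaling. Among the higher ones were SERPINE2 (log2 2.30), SERPINI1 (3.37), SERPINF2 (4.96), SERPINA3, SERPINB7 (5.41), SERPINB10, SERPINB4 and SERPINC1.

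SERPINB10, or bomapin, a serpin of blood-forming cells, was seen at 1 FPKM or more in PR only among the libraries. It had 0, 4 and 7 counts in parental libraries, 2 in CR, 220 and 306 in PR and 9 in DR. Both PR libraries were above all others, and the log2 fold change over parental cells was 6.04 ± 0.77 SE (adjusted p = 0.001897), or 6.86 without parental replicate 3. The PR counts of SERPINB4, 19 and 15, stood against 0 in all parental libraries, at least 18.1-fold higher (adjusted p = 0.006741). SERPINB3 and SERPINB4 are near-identical neighbours, so reads may be split between them in ways that were not checked. SERPINC1, or antithrombin, had 3, 0 and 0 parental counts and 23 and 24 in PR, a ratio per total count of 25.0 (95% exact interval 8.04 to 125.5, counting error only; adjusted p = 0.01317). The calls of SERPINB4 and SERPINC1 were lost without either PR library (adjusted p = 0.0847 to 0.179), and that of SERPINA3 without PR replicate 2 (0.0938).

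Of the 3 lower serpins in PR, SERPINB9 fell by 1.62 on the log2 scale (adjusted p = 0.003375), but was not called without PR replicate 2 (0.0584). SERPINB11, also of clade B, stood at 26.3, 61.8 and 53.5 FPKM in parental libraries and at 19.2 and 16.8 in PR. Its log2 fold change was -1.64 ± 0.37 SE (adjusted p = 0.01157), and the call was lost without PR replicate 1 or 2 (0.0677 and 0.130). SERPINB1, which inhibits the neutrophil proteases elastase and cathepsin G, stood at 15.2, 40.1 and 27.6 FPKM in parental libraries and at 12.7 and 14.2 in PR. Parental replicate 1 was close to the PR values. The log2 fold change was -1.25 ± 0.37 SE (adjusted p = 0.03245), and it was not called in 9 of 14 alternatives, among them limma on FPKM (0.0854), upper-quartile scaling (0.0628) and the fits without parental replicate 2 or 3 or either PR library (0.0568 to 0.191).

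**Figure D4:**
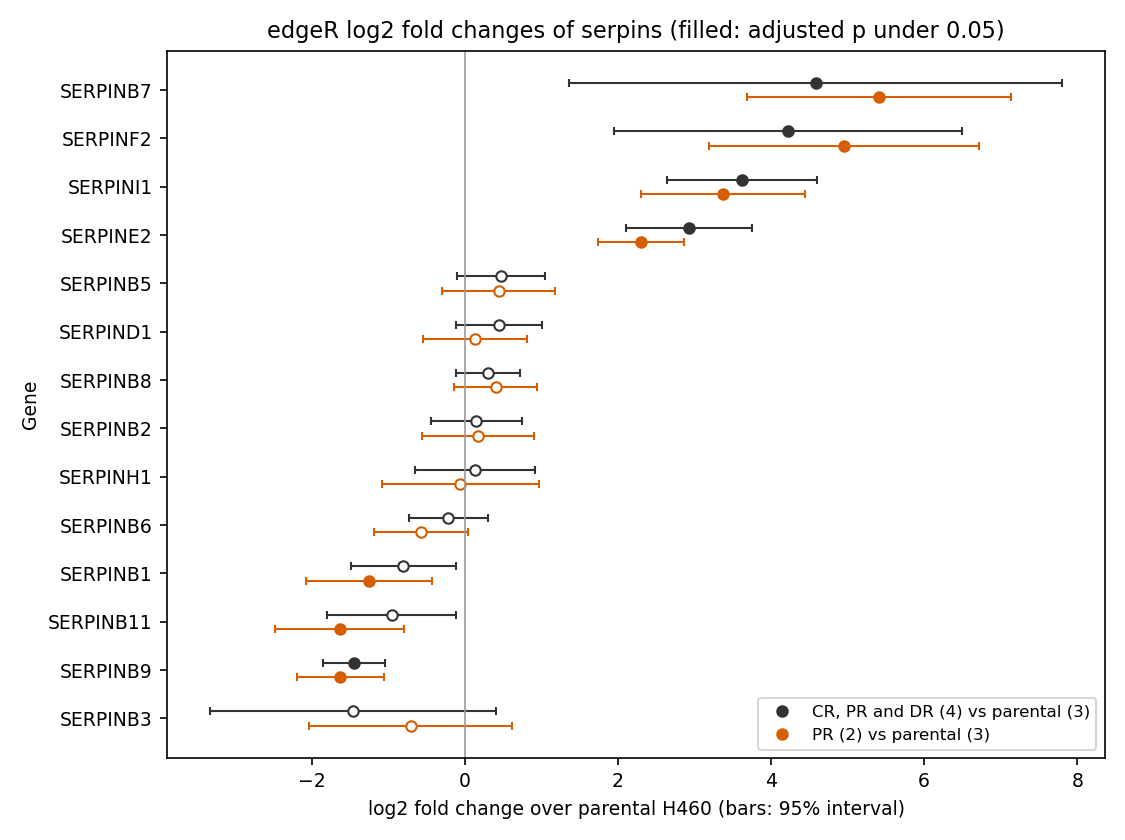
edgeR log2 fold changes over parental H460 with 95% intervals, for serpins with more than 3 parental counts that were tested in all drug-resistant libraries (black) and in PR (orange). Filled points have an adjusted p under 0.05; SERPINE2, SERPINI1, SERPINF2 and SERPINB7 lie to the right in both, SERPINB9 to the left in both.

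The CR and DR libraries have no replicates, so each was set against the parental mean on log2(FPKM + 1) with no test. In CR, SERPINE2 (3.73) and SERPINI1 (1.26) were over 2-fold higher and SERPINB9 (-1.36) over 2-fold lower, and in all 3 of 20 serpins were higher and 1 lower, against 2.89% and 3.49% of 25607 genes. In DR, SERPINE2 (2.96) and SERPINI1 (2.11) were over 2-fold higher, and in all 3 of 22 serpins were higher and 0 lower, against 2.53% and 2.49% of 28844 genes. SERPINE2 and SERPINI1 were thus over 2-fold above parental cells in CR and DR and called in PR, with SERPINE2 highest in CR and SERPINI1 in DR.

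For a difference between drugs, PR was set against CR and DR with the spread of all 7 H460 libraries. No serpin of 19 was called in edgeR, and no gene of 19770 either (0% higher and 0% lower), while 8 serpins and 2479 genes had an unadjusted p under 0.05. DESeq2 called 420 genes and limma on log2(FPKM + 1) called 101, and SERPINB10 was the serpin in both. Without a filter on low counts, edgeR called 509 genes, among them SERPINB10, SERPINB7, SERPINE2 and SERPINF2. In edgeR the largest serpin difference with more than 3 counts in each group was that of SERPINB10 (log2 5.76, 95% interval 3.72 to 7.80, adjusted p = 0.1129). SERPINE2 gave log2 -1.03 in PR (interval -1.71 to -0.34, adjusted p = 0.2224). For SERPINI1 (log2 -0.41, -1.49 to 0.66) the interval included 0.

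The libraries' names come in 2 forms, with or without a hyphen, and what the form stands for is not stated. PR replicate 1 and parental replicates 1 and 3 share the plain form, and the other drug-resistant libraries and parental replicate 2 the hyphenated one. On log2 CPM, counts scaled to library size, SERPINE2 was higher by 2.09 within the plain form and 3.09 within the hyphenated form. SERPINI1 was higher by 3.62 and 3.13, and SERPINF2 by 3.74 and 4.15. SERPINB9 was lower within both (-1.39 and -1.65). SERPINB7 was higher by 4.85 and 1.64.

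The targets and partners of the serpins were counted in lists by role, which are described by their counts and medians beside those of all genes (median log2 0.06 in the comparison of all drug-resistant libraries). Of all genes tested there, 18.5% were called higher and 15.3% lower. The filter on low counts left 8 of 13 plasminogen activation, 9 of 16 clotting, 9 of 33 granule and kallikrein and 16 of 33 inhibitor genes. LRP2 and KLKB1, at most 0.0169 FPKM in any parental library, passed it through the drug-resistant ones. The counts and medians of the lists are therefore a description. Of 8 plasminogen activation genes tested, 4 were higher and 1 lower, with a median of 1.34. PLAU, the urokinase that SERPINE2 and SERPINB2 inhibit, stood at 18.4 to 44.2 FPKM in parental libraries and 124.9 to 236.4 in drug-resistant ones (log2 2.26 ± 0.32 SE, adjusted p = 0.0008095). PLAT, the tissue activator, stood at 6.11 to 12.7 against 35.1 to 97.3 FPKM (log2 2.38, adjusted p = 0.002798). VTN, the matrix and plasma protein vitronectin, stood at 5.00 to 9.37 against 28.9 to 81.2 FPKM (log2 2.65, adjusted p = 0.001162). SERPINE2 was thus higher in the same libraries as PLAU, while SERPINB2 did not pass the test. KLKB1, plasma prekallikrein, was called higher from under 0.3 FPKM.

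Of 9 receptors that clear serpin complexes, 3 were higher and 2 lower (median 0.62). LRP1, the main such receptor, stood at 0.542 to 5.43 FPKM in parental libraries and 7.96 to 11.7 in drug-resistant ones (log2 1.82, adjusted p = 0.04561). Its chaperone LRPAP1 was also higher (log2 1.23, adjusted p = 0.001379), and LRP2 was called from under 0.08 FPKM.

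Of 10 cysteine cathepsins, 5 were higher and 1 lower (median 0.93). CTSF (log2 1.93, adjusted p = 0.0003049), CTSS (2.74, 0.01332) and CTSO (1.82, 0.001131) were higher and CTSV (-2.10, 0.001092) was lower. In CR, CTSS stood at 0.169 FPKM, within the parental 0.116 to 0.194, against 1.52 and 2.35 in PR and 0.648 in DR. Of 9 clotting and contact genes, 4 were higher and 2 lower (median 0.42), with F8 (log2 2.03, adjusted p = 0.0003629) and THBD (4.07, 0.004773) among the higher ones. Of 4 classical complement proteases, 3 were higher (median 2.00). C1S and C1R, the proteases that SERPING1 inhibits, had log2 fold changes of 2.70 (adjusted p = 9.422e-05) and 2.32 (0.0009635), while SERPING1 itself had 0 counts in parental, CR and DR libraries and 4 and 6 in PR.

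Of 9 granule, trypsin-like and kallikrein proteases, HTRA1 alone was higher (log2 1.61, adjusted p = 0.01228) and none was lower (median 0.31). Of 16 protease inhibitors outside the serpin family, 9 were higher and 1 lower (median 1.39). TIMP1, an inhibitor of matrix metalloproteases that was chosen after its values were seen, stood at 198.0 to 240.3 FPKM in parental libraries and 702.1 to 845.4 in drug-resistant ones (log2 1.66, adjusted p = 0.0003432). PI3, or elafin, an inhibitor of elastase, had the largest log2 fold change of those with parental counts, 4.96 (adjusted p = 0.008464), before ITIH4 (2.34, 0.006556) and SPOCK2 (1.91, 0.004382). In CR, PI3 stood at 1.21 FPKM, close to the highest parental value of 1.02, against 28.2 and 27.2 in PR and 5.41 in DR. Of 20 procollagen folding genes, the partners of SERPINH1, 3 were higher and 1 lower (median 0.04), with FKBP10 at 1.85 (adjusted p = 0.003264). Of 6 acute-phase proteins that passed the filter on low counts, out of 21 listed, 5 were higher (median 2.76), C3 among them (3.02, 0.01257). In CR, C3 stood at 2.605 FPKM, within the parental 0.4447 to 2.758, against 22.8 and 22.4 in PR and 8.16 in DR. Of 9 caspase and inflammasome genes, 2 were higher and 1 lower (median 0.21), with CASP1 at 3.21 (0.003028).

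Culture as tumor spheres was compared with 2D in 1 fit over both lines, with the line as a covariate. Of 21 serpins tested, SERPINA3 was higher and none was lower, against 0.147% of 18372 genes higher and 0.0435% lower. In 2D, SERPINA3 had counts in A549 alone, so it passed the filter on low counts with the help of the TS libraries. The count of called serpins is again a description. At an unadjusted p under 0.05 there were 9 serpins and 1363 genes. SERPINA3 went from 0 counts in the 3 H460 2D libraries to 402 in H460 TS, or 3.55 FPKM, which is at least 459.3-fold higher against a floor of 3 counts over the 2D group. In A549 it went from 0.570 to 89.6 FPKM, a ratio per total count of 155.8 (95% exact interval 122.8 to 200.7, counting error only). The edgeR log2 fold change in A549 and H460 together was 8.17 (adjusted p = 0.00684). The call was lost without parental replicate 2 (0.0647) or 3 (0.0664) and with limma on log2(FPKM + 1) (0.0929). SERPINA1 came next, with an adjusted p of 0.05526. It had 0 counts in every H460 library, so its TS difference came from 1 A549 library of each culture.

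The spheres of A549 held a group of clade A serpins from 1 cluster of chromosome 14, where 9 of the 34 serpins lie. With 1 library of each culture there is no test in A549 alone, and intervals cover counting error only. SERPINA1, or alpha-1-antitrypsin, the main plasma inhibitor of neutrophil elastase (chr14:94376747-94390635), went from 0.487 to 180.6 FPKM in A549 and from 113 to 46000 counts, a ratio of 375.6 (312.3 to 455.9). It was the most abundant serpin of A549 TS and had 0 counts in all 8 H460 libraries, TS included. SERPINA6, the corticosteroid-binding globulin that carries cortisol in plasma, went from 2.63 to 36.7 FPKM, a ratio of 13.9 (12.3 to 15.7). SERPINA10, an inhibitor of clotting factor Xa, went from 12 to 237 counts, a ratio of 18.2 (10.2 to 35.8). SERPINA5, the protein C inhibitor, went from 0 to 135 counts (at least 41.5-fold), and SERPINA4, or kallistatin, from 0 to 70 counts (at least 21.5-fold). SERPINA9 and SERPINA12, which lie between them, had 2 and 6 counts in A549 TS, and SERPINA11 had 0. SERPINA3, described above, lies at the end of the cluster. So 6 of the 9 genes had 70 counts or more in A549 TS, and the rest had at most 6.

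The 250 bases before the start of 4 of these genes are shown because they stood out together in A549 TS and lie in 1 cluster on chromosome 14, with other serpins among them. SERPINA5 and SERPINA10 stood out there as well and are not shown. The sequences are of RefSeq on GRCh38.p14, 5′ to 3′ on the strand of each gene. Capitals mark GTTAAT, an HNF1 half-site, and TTCNNNGAA, a STAT site, both searched on both strands, so that ATTAAC is the first one read on the other strand. SERPINA1 has more than 1 start in RefSeq, and the one shown is the downstream one, which holds GTTAAT. The window of its other start holds neither motif.
SERPINA6 (chr14:94323337-94323586, minus strand): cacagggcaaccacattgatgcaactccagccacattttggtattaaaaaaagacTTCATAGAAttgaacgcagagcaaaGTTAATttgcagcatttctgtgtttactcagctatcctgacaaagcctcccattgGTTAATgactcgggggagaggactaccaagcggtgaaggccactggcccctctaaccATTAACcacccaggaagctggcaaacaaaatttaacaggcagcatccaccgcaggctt
SERPINA1 (chr14:94388603-94388852, minus strand): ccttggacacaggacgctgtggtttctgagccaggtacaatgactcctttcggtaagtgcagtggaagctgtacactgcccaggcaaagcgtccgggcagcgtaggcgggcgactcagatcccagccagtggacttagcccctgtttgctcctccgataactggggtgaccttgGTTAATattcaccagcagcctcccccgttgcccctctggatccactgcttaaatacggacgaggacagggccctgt
SERPINA4 (chr14:94561192-94561441, plus strand): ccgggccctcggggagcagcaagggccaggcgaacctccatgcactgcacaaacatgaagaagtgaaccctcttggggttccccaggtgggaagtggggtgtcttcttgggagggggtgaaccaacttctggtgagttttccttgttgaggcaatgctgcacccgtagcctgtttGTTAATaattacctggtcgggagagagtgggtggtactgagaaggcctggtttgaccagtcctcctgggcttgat
SERPINA3 (chr14:94612141-94612390, plus strand): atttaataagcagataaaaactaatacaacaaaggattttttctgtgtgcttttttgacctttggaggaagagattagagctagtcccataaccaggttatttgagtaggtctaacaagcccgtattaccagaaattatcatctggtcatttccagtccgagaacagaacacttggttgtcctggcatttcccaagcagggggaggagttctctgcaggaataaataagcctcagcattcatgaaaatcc
GTTAAT stood in the windows of SERPINA6 and SERPINA4 and in 1 of 2 windows each of SERPINA1 and SERPINA10, and it was not among the letters of the SERPINA3 and SERPINA5 windows. It stood in 7 of the 41 serpin windows and in 6.23% of 35116 windows of this length. TTCNNNGAA stood in the SERPINA6, SERPINA5 and SERPINA11 windows of the cluster, in 8 of the 41 and in 6.57% of 35116. Neither overlapped another motif in these windows.

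Other serpins stood apart in the A549 spheres as well. SERPINE2 went from 41.3 to 142.1 FPKM, 3.44-fold higher (3.35 to 3.53). Its target PLAU stood at 84.9 FPKM in A549 2D and 24.4 in TS, and at 18.4 to 44.2 FPKM in H460 2D and 3.04 in H460 TS. Of 7 plasminogen activation genes tested for TS against 2D in both lines, none was called, against 0.147% of all genes higher and 0.0435% lower. Their median log2 was -0.38. SERPINB1 went from 17.7 to 39.7 FPKM, SERPINB7 from 1.07 to 7.42, SERPINI1 from 0.334 to 1.89 and SERPINB11 from 0.0398 to 3.90. In all, 8 serpins of 28 were over 2-fold higher and 1 lower on log2(FPKM + 1), against 3.46% and 1.56% of 24423 genes.

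In H460, 1 serpin of 21 was over 2-fold higher in TS and 1 lower, against 0.962% and 0.982% of 24852 genes. SERPINA3 was the higher one. SERPIND1 was the lower one, at 5.97 FPKM in TS against 10.6, 21.1 and 17.0 in 2D, which is below all 3. SERPINB9 stood at 21.6 FPKM in H460 TS, above the 10.03 to 13.01 of 2D, but less than 2-fold above the mean. SERPINE2, at 196.3 FPKM in TS, was just below the 222.4 to 286.2 FPKM of 2D. The 5 fibroblast markers summed to 28.3 FPKM in H460 TS against 1.29 to 6.00 in 2D, of which LUM made 26.6 FPKM against 0.237 to 2.76, while COL1A2 was at 0. Its part in the serpin levels was not tested.

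**Figure D5:**
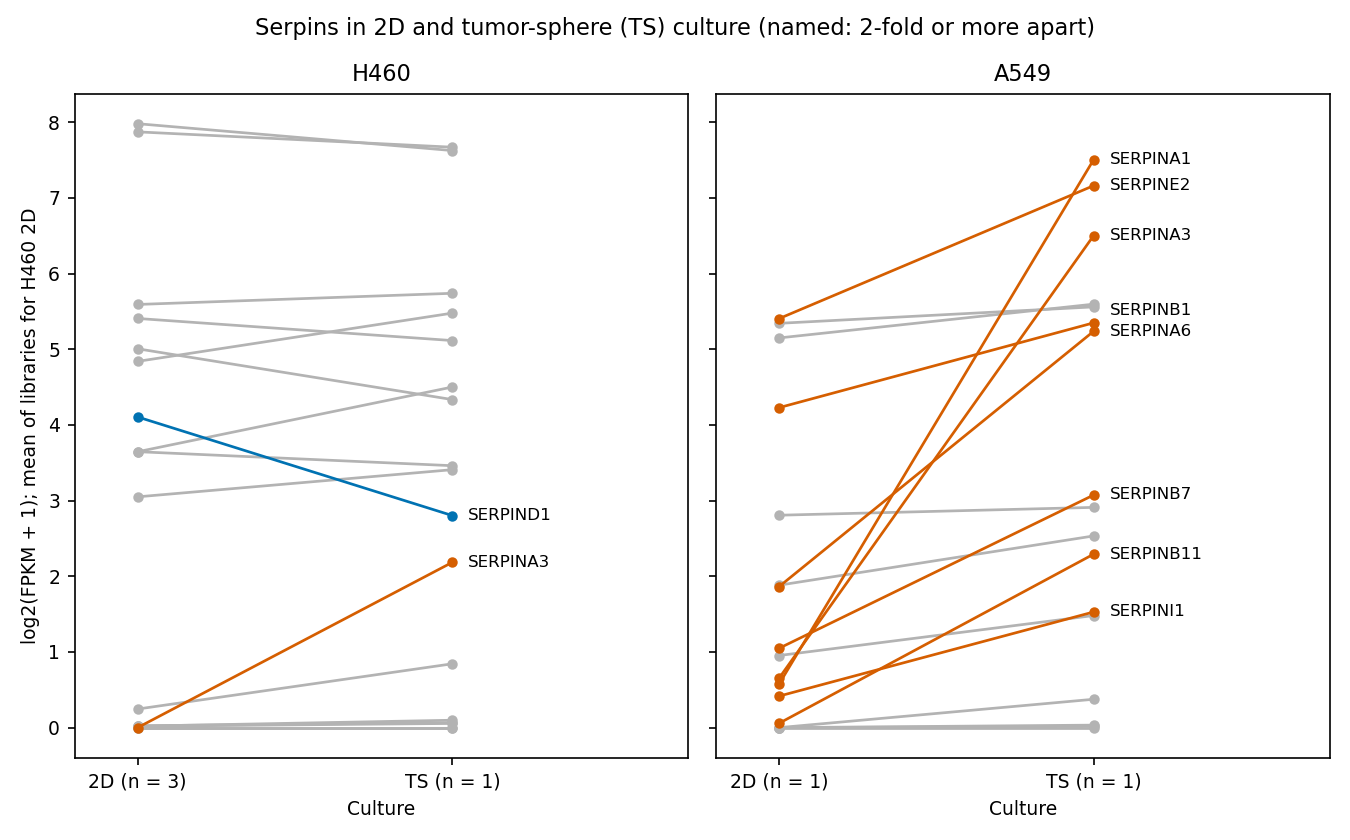
log2(FPKM + 1) of serpins in 2D and TS culture of H460 (left; mean of 3 libraries in 2D) and A549 (right; 1 library each). Lines join the same gene; named genes are 2-fold or more apart on this scale, 2 in H460 and 8 in A549, with SERPINA1 at 0.487 FPKM in A549 2D and 180.6 in A549 TS.

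Whether the TS effect differed between the lines was tested as an interaction, in which the spread comes from the 3 parental H460 libraries alone. SERPINB5 and SERPINB11 were called with a larger effect in A549, which is 2 of 21 serpins higher and 0 lower, against 0.397% and 0.098% of 18372 genes. SERPINB5 had 0 and 63 counts in A549 2D and TS and stood at 18.8 to 43.6 FPKM in H460 2D and 19.2 in H460 TS. SERPINB11 had 6 and 554 counts in A549, and 26.3 to 61.8 and 52.4 FPKM in H460. The log2 interactions were 9.64 (adjusted p = 0.04513) and 6.27 (adjusted p = 0.04131). At an unadjusted p under 0.05 there were 6 serpins. Neither SERPINB5 nor SERPINB11 was called by limma on FPKM or by edgeR without a filter, and SERPINB11 was not called without parental replicate 3 (adjusted p = 0.0684). For SERPINA3 the direction depended on the scale, with a log2 interaction of -4.46 in edgeR (adjusted p = 0.2458) and 3.67 in limma on log2(FPKM + 1) (0.04325). SERPINA1, at 0 in H460, gave no usable interval.

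Between the lines, A549 (2 libraries) was compared with H460 (4 libraries) in the same fit. Of 21 serpins tested, 9 were higher in A549 and 6 lower, against 14.4% and 9.42% of 18372 genes. Among the higher ones, SERPINA1, SERPINA6, SERPINA10 and SERPINF1 had 0 counts in these H460 libraries, and SERPINF2 had at most 7. They passed the filter on low counts through A549 alone. Among the lower ones, SERPINB2, SERPINB5 and SERPIND1 had 0 counts in A549 2D and passed it through the H460 libraries. The counts of called serpins are therefore a description in both directions. SERPINB2, SERPINB5, SERPINB11 and SERPIND1 were abundant in H460 and scarce or at 0 in A549. SERPINB2 had 2 counts over both A549 libraries against 137136 over the 4 H460 libraries, a ratio per total count of 33510 (95% exact interval 9275 to 276700) towards H460 (adjusted p = 0.0001456). SERPIND1 had 5 against 9669 counts, a ratio of 945.0 (404.8 to 2911, adjusted p = 0.001356). SERPINB5 had 63 against 23263 counts (180.4, with 141.0 to 234.9, adjusted p = 0.008683). SERPINB11 had 560 against 25845 (22.6, with 20.7 to 24.6, adjusted p = 0.02786), and its call was lost without parental replicate 2 (0.0615) or 3 (0.0583). Of these A549 counts, all 63 of SERPINB5 and 554 of SERPINB11 came from TS. In 2D alone, SERPINB5 was at least 1989-fold and SERPINB11 981.6-fold (450.9 to 2675) lower in A549, and the log2 difference of SERPINB11 was -3.69 without A549 2D and -9.95 without A549 TS. SERPINB8 was lower in A549 by 1.65 on the log2 scale (adjusted p = 0.0151), but not without A549 2D (0.170). SERPINB9 was lower by 1.23 (adjusted p = 0.01612), but not without H460 TS (0.101) or A549 TS (0.108).

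Of the higher serpins, SERPINA1 and SERPINA6 had 46113 and 4702 counts in A549 and 0 in these 4 H460 libraries, at least 31460-fold and 3207-fold higher (adjusted p = 0.000995 and 0.001279). Most of these counts came from the TS library. In 2D alone, SERPINA1 had 113 counts and SERPINA6 had 293, at least 124.3-fold and 322.4-fold above H460 2D. SERPINA3 (log2 5.45, adjusted p = 0.001719, and 9.16 without H460 TS) and SERPINA10 (249 counts against 0, at least 169.9-fold, adjusted p = 0.01253) were also higher, and SERPINA10 was not called by DESeq2 (0.1226). SERPINF2 (5.66, 0.003507) and SERPINB7 (6.26, 0.001534) were higher in both A549 libraries than in each H460 2D or TS library.

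SERPINF1, the secreted protein called pigment epithelium-derived factor, had 74 and 38 counts in A549 2D and TS and 0 in these H460 libraries, at least 76.4-fold higher (adjusted p = 0.01115), but it was not called without A549 2D (0.106). SERPINH1 stood at 34.5 and 47.3 FPKM in A549 and 3.86 to 12.7 in H460 2D and TS (log2 2.25, adjusted p = 0.0142), and was not called without A549 2D (0.0896). SERPINE2 stood at 41.3 and 142.1 FPKM in A549 and 196.3 to 286.2 in H460, and gave an adjusted p of 0.06747 in edgeR and 0.004835 in DESeq2. SERPINB6 stood at 39.5 and 46.1 FPKM in A549 and 33.6 to 55.02 in H460, with a fold of 1.13 (95% interval 0.715 to 1.796).

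Acute-phase proteins outside the serpin family were counted beside these. In A549 against H460, 7 of 10 tested (21 listed) were higher and none lower, against 14.4% and 9.42% of all genes. The median log2 was 5.82, and 0.00 for all genes. Genes that were scarce in H460 passed the filter on low counts through A549, so the counts and medians are a description. LCN2, or lipocalin-2, stood at 0.265 and 122.9 FPKM in A549 2D and TS and at 0 and 0.211 in H460. In TS against 2D, 2 of 10 were higher, LCN2 (adjusted p = 0.003898) and CP, ceruloplasmin (0.04031), against 0.147% of all genes. None was lower, against 0.0435%, and the median was 3.41. CP stood at 9.64 and 156.8 FPKM in A549 2D and TS, and at 0.149 to 0.598 and 10.8 FPKM in H460 2D and TS. For the TS effect in A549 against H460, 2 of 10 were called lower and none higher, the fibrinogen chains FGA (adjusted p = 0.01731) and FGG (0.02357). Of all genes, 0.098% were called lower and 0.397% higher for this effect. FGG stood at 0.322 to 0.499 FPKM in H460 2D and 43.04 in H460 TS, and at 10.6 and 24.9 FPKM in A549 2D and TS. FGA stood at 0 and 4.50 FPKM in H460 2D and TS, and at 12.1 and 40.7 FPKM in A549. Of the 5 hepatocyte markers, TTR stood at 1.55 FPKM in A549 TS, and ALB and APOA1 were at 0 there. The summed hepatocyte markers were 1.62 FPKM in A549 TS and 0.0117 in A549 2D, and 0.0235 in H460 TS. LYZ, a leukocyte marker, stood at 37.8 FPKM in A549 TS and 0 in A549 2D, while PTPRC was at 0.00459. Their part in the clade A levels was not tested.

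The remaining members stayed low. SERPING1, the inhibitor of complement C1 proteases, had at most 6 counts in any library. SERPINE3 had 4 counts in PR replicate 2, 3 in CR and 0 elsewhere. SERPINB12 had its highest count, 29, in DR, and at most 8 elsewhere. SERPINB3 had between 0 and 54 counts, at most 0.387 FPKM. SERPINC1 had at most 24 counts. The counts at 0 say that these genes were not detectable at this depth, not that they are silent.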

How the data were processed

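The authors sequenced 10 TruSeq poly(A) RNA libraries. The submitters' processing notes name bcl2fastq 1.8.4, Trimmomatic, HISAT2 2.1.0, StringTie 2.1.3b and GRCh38, with no roles. The authors deposited read counts per gene as whole numbers without normalization. FPKM values were scaled by the authors to transcript length and library size, and TPM values by the authors were scaled to an equal total per library. Whether counting used strand is not given in the sources used here, so overlapping antisense genes cannot be told apart.

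Counts were compared in edgeR 4.0.16 (R 4.3.3) with TMM scaling, filterByExpr (minimum count 10, minimum total 15), glmQLFit and glmQLFTest, over all genes, p-values adjusted after Benjamini and Hochberg and called under 0.05. Alternatives were DESeq2 1.42.0, limma 3.58.1 on log2(FPKM + 1) or log2(FPKM + 0.1), other size factors, other filters and leaving out each library. Single libraries were compared on log2(FPKM + 1) with a 2-fold limit. Ratios per total count have exact 95% intervals, and bounds use a floor of 3 counts over a group. A count of 1 was rarer (666 to 814 genes per library) than a count of 2 (962 to 1563), so a count may not be 1 independent read and the intervals, which cover counting error only, may be too narrow. Replicate pairs differed by more than counting error (chi-square per gene 80.7 to 338.3), with a Pearson correlation over genes (not independent replicates) of 0.986 to 0.993.

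Every serpin is accounted for, those at 1 FPKM or more in at least 1 library are named with values, and a fold change is given for each call, with 1 exception below. Of the other lists, up to 4 called genes with the largest log2 fold change were taken. Of the members and of the other genes counted, 1 each is in the counts and sums but not reported here by name. Members and lists were chosen with earlier results of these data known. Gene positions and promoter windows are of RefSeq on GRCh38.p14, where 34 serpins have a position and 27 a window. The edgeR tests were run on simulated data with known changes before use. DESeq2, limma and the exact intervals were not.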

Additional observations from a re-analysis of the deposited data

Results flagged for a closer look

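The effect of TS culture was called as different between A549 and H460 for 2 serpins by the interaction term of edgeR. A549 had 1 library of each culture, and the spread came from the parental H460 libraries alone. Neither serpin was called by limma on FPKM or by edgeR without a filter. SERPINB5 reached only 0.297 FPKM in A549 TS. For SERPINB5 the log2 difference was 9.64 (adjusted p = 0.04513), from 0 counts in A549 2D to 63 in A549 TS, while H460 went from 18.8 to 43.6 FPKM in 2D to 19.2 in TS. For SERPINB11 it was 6.27 (adjusted p = 0.04131), from 6 to 554 counts in A549, while H460 went from 26.3 to 61.8 FPKM in 2D to 52.4 in TS.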

How the results depend on the processing

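Of 37 gene results with a call, 20 stayed on the same side of the threshold in every alternative run, and over all of them 415 of 457 alternatives did so. The other 42 lost the call and none changed sign. Limma and the FPKM filter took only genes at 1 FPKM or more in at least 2 libraries. SERPINA3, SERPINB7 and SERPINF2 were therefore not tested there against parental cells, nor were SERPINB4 and SERPINC1 in PR. Beyond this filter, the cause of the differences below was not tested. Serpins called in drug-resistant libraries were 7, and 4 with limma on log2(FPKM + 1) or log2(FPKM + 0.1). In PR they were 12, 6 with either limma scale or the FPKM filter, and 6 to 12 on leaving out a library (6 without PR replicate 2). PR against CR and DR gave 0, 1 with DESeq2 or either limma scale, 4 without a filter, and 0 to 1 on leaving out a library (1 without parental replicate 1). TS against 2D gave 1, 4 with DESeq2, 0 with limma on log2(FPKM + 1), and 0 without parental replicate 2 or 3. Without H460 TS or A549 2D the TS effect rests on 1 TS library, so no count is given for those fits. The TS effect between lines gave 2, 5 with DESeq2, 1 with limma on log2(FPKM + 0.1) and 0 without a filter. Of all genes, PR called 5455, 3026 and 2773 with limma (pseudocount 1 and 0.1), 2742 with the FPKM filter, and 950 to 6661 on leaving out a library. PR against CR and DR called 0, 420 with DESeq2, 101 and 15 with limma, 509 without a filter, and 0 to 66 on leaving out a library. TS against 2D called 35, 537 with DESeq2, 19 with limma on log2(FPKM + 0.1), 19 with the FPKM filter, and 6 to 348 on leaving out a library. A549 against H460 called 4384, 2843 with the FPKM filter, and 2359 to 3905 on leaving out a library. The TS effect between lines called 91, 519 with DESeq2, 27 and 13 with limma, 0 without a filter, and 72 to 595 on leaving out a library. Serpins apart 2-fold in DR were 3, 5 with a pseudocount of 0.1, and 6 and 5 against parental replicate 2 or 3 alone. In H460 TS they were 2, 5 with a pseudocount of 0.1, and 4 against parental replicate 1 or 2 alone. In A549 TS they were 9, and 15 with a pseudocount of 0.1. With the replicate number as a block, PR called 12 serpins and 6775 genes in the 4 libraries that share a number, against 11 and 6661 without the block in the same libraries, an alternative chosen after seeing the data. The deviations of same-numbered libraries had a correlation of 0.156, and these 2 pairs share only a number. Upper-quartile scaling shifted the median over the genes tested (log2) from 0.06 to 0.23 in drug-resistant libraries and from 0.05 to 0.30 in PR, and it called 7 and 11 serpins. With 1 library of CR, DR, A549 2D and each TS group, and low counts for many serpins, small changes were not detectable.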
